A study of Mus musculus with 2 samples.

Results

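10 genes that set the balance between epithelial and mesenchymal cell states were followed: the Snail genes Snai1, Snai2 and Snai3, the Scratch genes Scrt1 and Scrt2, Zeb1 and Zeb2, Ovol1 and Ovol2, and Vim. They were chosen by symbol, as 10 of the 23284 genes in the count tables, and all 10 were found in both tables. The data are RNA-seq of GFP-positive cells, sorted from dissociated whole pancreata of NGN3-EGFP mouse embryos (strain given as mixed, C57BL6) at e15.5. There was 1 group with 2 libraries, called replicates 1 and 2, of 12495143 and 12043734 counted reads. All cells carried the reporter, and no reporter-negative cells were analysed here. The labels do not say whether the reporter replaces a Neurog3 allele, nor whether embryos were pooled or the libraries came from separate litters. Differences between the libraries therefore measure only the spread between these samples, which may be technical.

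Epithelial-mesenchymal transition (EMT) is the programme by which epithelial cells loosen their junctions and become motile, and endocrine cells leave the pancreatic duct epithelium as they form islets. Snail, Scratch and Zeb proteins are zinc finger repressors that bind E-box sequences, and E-cadherin (Cdh1) is their best known target. Snail, Scratch and Ovol proteins start with a short SNAG domain that recruits corepressors, whereas Zeb proteins bind CtBP. Ovol proteins act in the opposite direction, holding cells epithelial in part by repressing Zeb genes. Vimentin, the product of Vim, is the intermediate filament protein of mesenchymal cells and a common readout of EMT.

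The E-box letters CAGGTG, read on both strands, show how the target side of this system looks in sequence. They were searched in windows of 300 bases, from 250 before to 50 after each gene's start, in RefSeq promoters of build GRCm38.p6. Promoters of 1 chromosome were left out of the search and of all its counts, so genes there had no entry. Of the 32851 promoters searched, 20.2% held a match, and of their 27025 genes 22.6% had one in at least 1 promoter. A match was found for 16 of 20 genes of a list of epithelial genes that had an entry and for 1 of 11 genes of a mesenchymal list. Among the members 4 had an entry, and a match was found for Snai1 but not for Zeb2, Ovol2 or Vim. The letters CCGTTA, a core recognised by Ovol proteins, were found for none of these 4 members, for 1 of the 20 epithelial and 1 of the 11 mesenchymal genes, and for 3.1% of all genes (2.8% of promoters). A match is a description of the letters and no evidence of binding. The promoters below are shown because Snai1 had no read and Vim the most reads of the members. Epcam (an epithelial adhesion molecule) and Crb3 (an apical polarity protein) are epithelial genes with matches and do not stand for their list. Crb3 was the only gene of that list with a match to CCGTTA. Capitals mark the E-box letters.
Snai1, chr2:167537945-167538244, plus strand: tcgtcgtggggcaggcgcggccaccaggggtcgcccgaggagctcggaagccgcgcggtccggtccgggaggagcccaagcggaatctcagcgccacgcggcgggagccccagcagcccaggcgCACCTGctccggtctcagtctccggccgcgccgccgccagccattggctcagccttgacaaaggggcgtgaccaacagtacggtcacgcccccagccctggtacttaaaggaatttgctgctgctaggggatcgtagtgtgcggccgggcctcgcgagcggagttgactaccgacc
Vim, chr2:13574061-13574360, plus strand: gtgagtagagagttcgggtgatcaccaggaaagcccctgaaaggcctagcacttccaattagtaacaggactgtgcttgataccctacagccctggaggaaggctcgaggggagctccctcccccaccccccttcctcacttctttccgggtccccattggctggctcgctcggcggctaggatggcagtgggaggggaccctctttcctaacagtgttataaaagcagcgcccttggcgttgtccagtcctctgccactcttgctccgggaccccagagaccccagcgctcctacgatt
Epcam, chr17:87635729-87636028, plus strand: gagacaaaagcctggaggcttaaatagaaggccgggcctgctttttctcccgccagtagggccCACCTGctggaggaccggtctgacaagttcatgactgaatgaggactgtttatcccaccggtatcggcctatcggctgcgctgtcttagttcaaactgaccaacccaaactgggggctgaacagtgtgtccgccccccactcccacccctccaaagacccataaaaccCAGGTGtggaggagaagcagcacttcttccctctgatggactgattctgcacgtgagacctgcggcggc
Crb3, chr17:57061951-57062250, plus strand: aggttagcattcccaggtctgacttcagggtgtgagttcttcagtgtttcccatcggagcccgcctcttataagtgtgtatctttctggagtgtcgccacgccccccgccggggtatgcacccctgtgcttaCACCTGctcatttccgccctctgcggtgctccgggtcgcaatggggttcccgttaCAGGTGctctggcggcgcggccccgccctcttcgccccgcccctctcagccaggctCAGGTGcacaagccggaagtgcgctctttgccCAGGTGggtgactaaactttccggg
The Snai1 window held 1 match, the Vim window none, the Epcam window 2 and the Crb3 window 4, along with 1 match to CCGTTA that is not capitalised. Crb3 was at 15.8 and 7.36 CPM in replicates 1 and 2, where CPM are reads of a gene relative to all counted reads, scaled with TMM factors. These levels were below the medians of the epithelial list, 53.4 and 69.8 CPM.

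The sorted cells had the markers of their label. All 16 genes of the endocrine list reached 1 CPM in each library, against 45.7% of all genes. Neurog3 was at 736 and 552 CPM in replicates 1 and 2. Markers of other pancreatic cells were present too. The acinar list summed to 1754 and 1310 CPM (7 of 10 genes at 1 CPM in each library; Pnlip without a read), led by Ctrb1 at 1321 and 986 CPM, and the duct list to 729.6 and 659.6 CPM (7 of 9). Summed over the list, mesenchymal markers were at 771 and 511 CPM, with 13 of 22 genes at 1 CPM or more in each library and Tnc without a read. The endothelial sum was 29.5 and 14.1 CPM (1 of 12 genes; Plvap without a read), and the immune sum 80.5 and 23.4 CPM (3 of 10; Fcer1g and Cd52 without a read). The list of neural crest and glia summed to 254 and 144 CPM (4 of 10; Foxd3 among those without a read), and to 27.97 and 39.5 CPM without Ret. Cells of each library were pooled, so the cells behind a transcript are unknown, and fewer cells of a type cannot be told apart from less RNA per cell.

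Most of the EMT repressors were at or near 0 in these cells. Snai1, Snai3, Scrt2 and Ovol1 had no read in either library, Snai2 and Scrt1 stayed under 1 CPM in both, and Zeb1, Zeb2 and Vim reached 1 CPM in both. Ovol2 did so in replicate 1 alone. Of the 10 members 4 thus had no read in either library, as had 8137 of all 23284 genes, so that count carries little weight. The count of 3 of 10 members, or 30.0%, at 1 CPM in each library stands against 45.7% of all genes. At a limit of 5 CPM in each library Vim was the only member left. A count of 0 allows up to 3 reads, or 0.241 and 0.248 CPM in replicates 1 and 2, for counting error only.

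**Figure D1:**
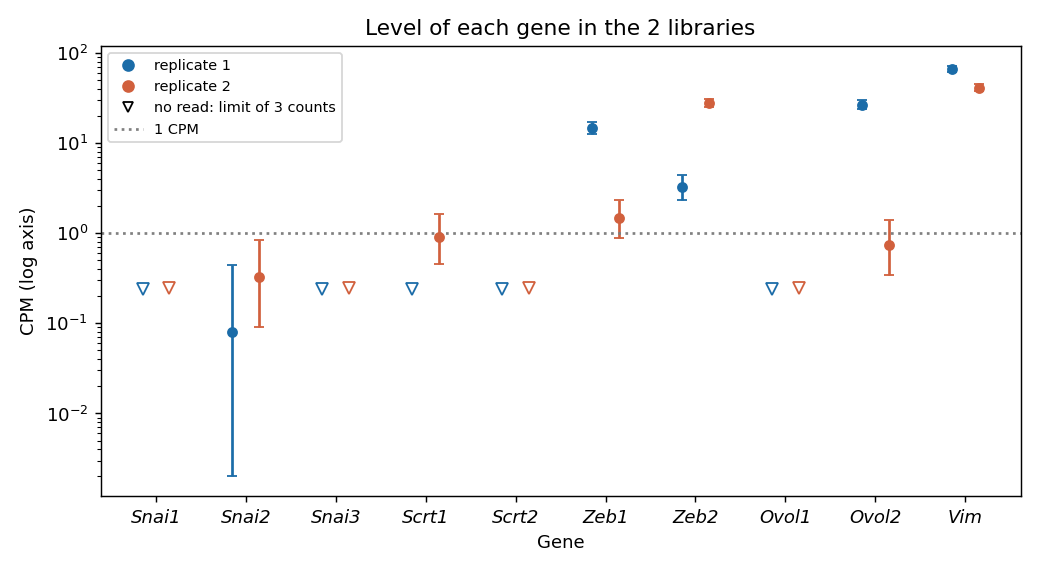
Level of the 10 genes in CPM on a log axis. Points are single libraries with exact 95% Clopper-Pearson intervals, open triangles mark genes without a read at the limit of 3 counts, and the dotted line is 1 CPM. Vim is highest in both libraries, at 66.2 and 41.3 CPM, and the order of Zeb1 and Zeb2 turns between them.

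Snail genes gave 5 reads in all. Snai2 (Slug), known from neural crest and mesenchyme, had 1 read in replicate 1 and 4 in replicate 2. These are 0.080 CPM (exact Clopper-Pearson 95% interval 0.0020 to 0.448) and 0.331 CPM (0.0901 to 0.847), so the libraries overlap within counting error. Snai1, the Snail gene most often tied to the repression of E-cadherin, and Snai3 had none. In the reference annotation every 25-base word of Snai1 and Snai3, and 96.9% of those of Snai2, was found in no other gene.

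Scratch genes, the neural branch of the family, also stayed under 1 CPM. Scrt1 had no read in replicate 1 and 11 reads, or 0.909 CPM (0.454 to 1.63), in replicate 2. It entered the test between libraries through replicate 2 alone, so its call (exact binomial test, adjusted p = 0.000556) follows from that filter and carries no weight. Scrt2 had no read, and 97.7% of its words were its own.

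Insm1 was the most abundant of the SNAG domain factors listed. Insm1, a repressor that drives endocrine differentiation, was at 331.5 and 281.4 CPM per kb of exon, while Gfi1, Gfi1b and Insm2, the other SNAG factors listed, had no read. Taking 3 reads as the limit per library, Insm1 was per kb at least 2229-fold (replicate 1) and 1839-fold (replicate 2) higher than Snai1, by counting error only. Against Scrt2 it was at least 4668-fold and 3852-fold higher. The corepressors through which SNAG and Zeb factors act were abundant, with 18 of 19 at 1 CPM or more in each library, against 45.7% of all genes. Kdm1a (LSD1), the histone demethylase that SNAG domains bind, was at 342 and 329 CPM. Its partner Rcor2 (a CoREST protein) was at 96.1 and 361 CPM and Hdac2 (a histone deacetylase) at 320 and 245 CPM. Ctbp1 and Ctbp2, the partners of Zeb proteins, were at 19.6 and 42.7 CPM and at 66.1 and 19.6 CPM, so their order by CPM also turned between the libraries.

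Zeb1 and Zeb2 were both read, and each was the higher one in a different library. Zeb1 had 182 reads in replicate 1 and 18 in replicate 2, equal to 14.6 CPM (12.6 to 16.9) and 1.49 CPM (0.882 to 2.35). Zeb2, also called Sip1, had 41 and 338 reads, or 3.30 CPM (2.37 to 4.47) and 27.9 CPM (25.04 to 31.1). Neither gene's intervals overlap between the libraries. Zeb1 was 9.83-fold higher in replicate 1 and Zeb2 8.48-fold higher in replicate 2.

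Per kb of exon, which allows genes to be set side by side, Zeb1 was 8.76-fold above Zeb2 in replicate 1, and Zeb2 was 9.52-fold above Zeb1 in replicate 2. With the full annotation in place of the basic transcript set these ratios were 8.62 and 9.67. The summed level of both genes was 2.81 CPM per kb in replicate 1 and 2.70 in replicate 2, a sum formed after the values were seen. By CPM, which counts the longer Zeb2 more, the sum was 17.9 and 29.4. With 2 libraries the mean of the ratio describes neither of them.

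Differences of this size were more frequent at 1 to 10 CPM, the range that holds Zeb1, than at 10 to 100 CPM, which holds Zeb2. The means of Zeb1 and Zeb2, 8.06 and 15.6 CPM, lie near the border of these ranges. The shares below thus describe the ranges and not the exact levels of these genes. The log2 ratios of replicate 2 over replicate 1 were -3.16 for Zeb1 and 3.02 for Zeb2 (exact binomial test with Benjamini-Hochberg adjustment, adjusted p = 9.52e-34 and 3.07e-60). That test compares these libraries and no conditions, and by it 85.8% of the 13416 genes with at least 10 reads differed. Of 3487 genes with a mean of 1 to 10 CPM, 38.3% differed by at least as much as Zeb1, and of 6762 genes at 10 to 100 CPM, 7.6% by at least as much as Zeb2. Strand and annotation set a further limit. The antisense gene Zeb2os, not analysed here, shares 653 bases with exons of Zeb2 in the full annotation, and without a known strand setting its reads cannot be told apart from those of Zeb2. Gm10125, which shares 198 bases with Zeb1 on the opposite strand, had no read.

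The miR-200 family, known to repress Zeb1 and Zeb2 through their transcripts, holds a pair of seeds (bases 2 to 8). Its mature sequences are shown from RefSeq (GRCm38.p6), grouped by seed, with the seed in capitals.
mmu-miR-200b-3p: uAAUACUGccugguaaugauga
mmu-miR-200c-3p: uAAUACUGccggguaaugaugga
mmu-miR-429-3p: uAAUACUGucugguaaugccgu
mmu-miR-141-3p: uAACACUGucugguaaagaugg
mmu-miR-200a-3p: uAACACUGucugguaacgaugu
The first 3 share the seed AAUACUG and the others AACACUG. The count tables give rows for their genes, which were picked after their values were seen. Mir200a had 8 reads in replicate 1 and 10 in replicate 2, Mir429 had 47 and 4, and Mir200b, Mir200c and Mir141 had none. Whether these reads come from mature miRNA was not tested, so the rows are not taken as its level.

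Ovol2 was read mainly in replicate 1. It had 332 reads there and 9 in replicate 2, or 26.7 CPM (23.9 to 29.7) and 0.744 CPM (0.340 to 1.41), a 35.9-fold difference with intervals far apart. Its log2 ratio of -4.89 was the furthest from 0 of all members (exact binomial test, adjusted p = 4.15e-83). With 9 reads in replicate 2, Ovol2 passed the filter of 10 reads through replicate 1 alone, so this call carries no weight. Of the 6762 genes with a mean of 10 to 100 CPM, 2.8% differed by as much or more. The mean of Ovol2, 13.7 CPM, lies near the lower border of that range. A difference over 2-fold was found for 42.9% of genes in that range and for 74.0% at 1 to 10 CPM. The 2.8% thus describes the range and not the exact level of Ovol2. Ovol1, its paralog of skin and germ cells, had no read; taking 3 reads as the limit for Ovol1, Ovol2 was at least 170-fold higher per kb in replicate 1. Of the 25-base words of Ovol2 and Ovol1, 83.7% and 75.5% were their own. The antisense gene 1700108N11Rik, not analysed here, shares 359 bases with exons of Ovol2.

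Ovol2 was 5.47-fold above Zeb1 per kb in replicate 1 and 1.501-fold in replicate 2, where the intervals of the 2 genes overlap. Against Zeb2 it was 47.9-fold higher in replicate 1, and Zeb2 was 6.34-fold higher in replicate 2. With the full annotation Ovol2 was 8.86-fold and 2.43-fold above Zeb1, 76.4-fold above Zeb2 in replicate 1, and 3.98-fold below it in replicate 2. Grhl2, a factor that holds epithelial identity and belongs to the epithelial list, differed in the same direction, at 48.5 and 4.96 CPM. Grhl3, a relative of it, was at 5.87 and 0.413 CPM, while Grhl1 was at 4.18 and 5.37 CPM. Cdh1 stayed at 761 and 612 CPM, Epcam at 310.5 and 376 CPM, and the splicing regulator Esrp1 at 321 and 239.5 CPM.

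Vim was the most abundant member in both libraries. It had 824 reads in replicate 1 and 500 in replicate 2, or 66.2 CPM (61.8 to 70.9) and 41.3 CPM (37.8 to 45.1), with a mean of 53.8 ± 17.6 (SD, n = 2). Replicate 1 was 1.60-fold higher, a log2 ratio of -0.68 (exact binomial test, adjusted p = 8.79e-17). Of the 6762 genes with a mean of 10 to 100 CPM, 58.6% differed at least as much. Vim transcripts exceeded those of 84.9% of all genes in replicate 1 and of 78.9% in replicate 2 by CPM.

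Transcripts of Krt7, Krt8 and Krt18 were above those of vimentin, and those of Krt19 and Krt20 below. Per kb of exon Krt8 was 2.95-fold and 2.999-fold above Vim in replicates 1 and 2, and Krt18, with which it pairs in simple epithelia, 2.14-fold and 6.05-fold. With the full annotation the ratios were 6.37 and 6.49 for Krt8 and 4.63 and 13.1 for Krt18. Krt19 was at 13.9 and 4.93 CPM per kb. Of 14 other intermediate filament genes, Krt7, Krt8 and Krt18 exceeded Vim per kb in both libraries with the basic transcript set. The neurofilament gene Nefm was at 18.7 and 30.5 CPM per kb against 30.2 and 18.9 for Vim, so their order turned. With the full annotation Vim was at 13.97 and 8.71 CPM per kb, and Nefm then exceeded it in both libraries. Nes (nestin) and Des (desmin) had reads in replicate 1 alone, at 12.7 and 4.50 CPM, and Gfap and Ina in replicate 2 alone, at 2.81 and 2.98 CPM.

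E-cadherin transcripts were above Vim and N-cadherin (Cdh2) transcripts in both libraries. Per kb, Cdh1 was 5.69-fold and 7.33-fold above Vim and 23.1-fold and 10.2-fold above Cdh2; with the full annotation these ratios were 11.9 and 15.4, and 36.4 and 16.05. With the basic set 12 of the 30 epithelial genes, but 1 of 22 mesenchymal genes, Sparc, were above Vim per kb in each library. The full annotation lengthens the exons counted for Vim from 2.19 to 4.74 kb and lowers its mean from 24.5 to 11.3 CPM per kb.

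The order of the members per kb differed between the libraries below Vim. In replicate 1 it ran Vim at 30.2, Ovol2 at 13.8, Zeb1 at 2.52, Zeb2 at 0.288 and Snai2 at 0.0398 CPM per kb, and the intervals of the last pair overlap. In replicate 2 it ran Vim at 18.9, Zeb2 at 2.44, Ovol2 at 0.385, Zeb1 at 0.257, Scrt1 at 0.208 and Snai2 at 0.164, and from Ovol2 down each interval overlaps the next. With the basic transcript set Vim was thus first in both, Snai2 last of those read, and the places between were not shared. With the full annotation Vim was only 1.11-fold above Ovol2 in replicate 1. In replicate 2 Zeb1, at 0.145 CPM per kb, was then below Snai2 at 0.164. With 2 libraries the smallest exact permutation p is 0.5, so no order was tested.

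**Figure D2:**
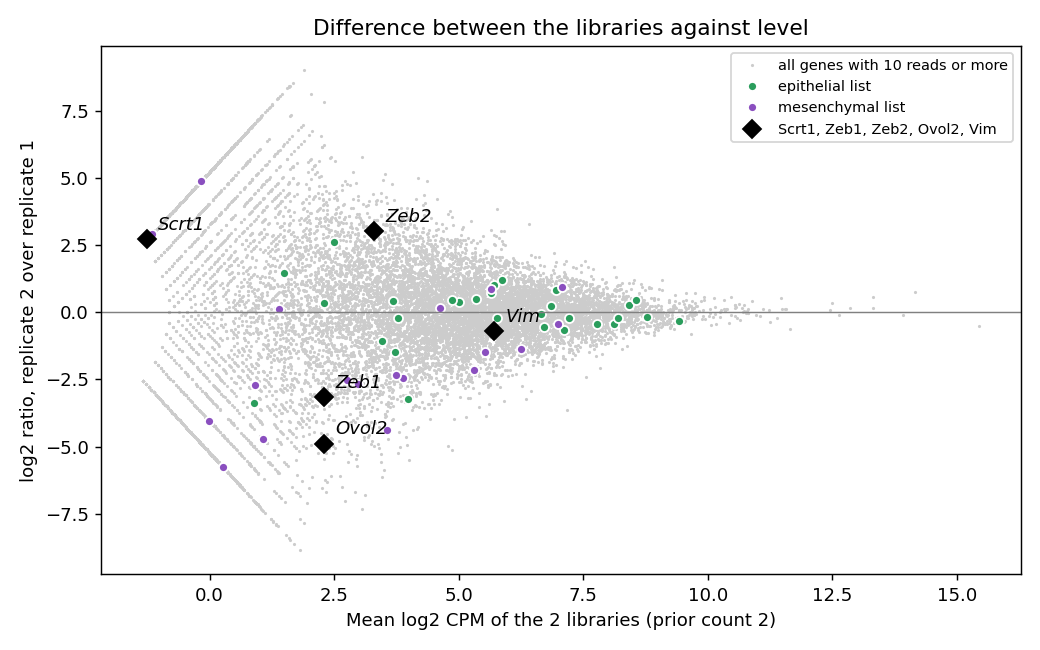
Difference between the libraries (log2 ratio of replicate 2 over replicate 1) against mean log2 CPM, for genes with at least 10 reads. Grey points are all 13416 such genes, green and purple points the epithelial and mesenchymal lists, and black diamonds the 5 members tested; Zeb1 (-3.16) and Ovol2 (-4.89) lie below 0, Zeb2 (3.02) above, and Vim (-0.68) nearest to it.

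Of the members, 5 had at least 10 reads, Scrt1 through replicate 2 alone and Ovol2 through replicate 1 alone. Without Scrt1 and Ovol2, Zeb1 and Vim were higher in replicate 1 and Zeb2 in replicate 2. Of all genes tested 41.7% were higher in replicate 1 and 44.1% in replicate 2 by the same test. Apart from Scrt1 and Ovol2, a difference over 2-fold was found for Zeb1 and Zeb2, and for 47.8% of all genes tested. These shares give the members' counts little weight.

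Most tested genes of the mesenchymal list were higher in replicate 1, against 41.7% of all genes tested. Of 19 tested genes of that list 13 were higher in replicate 1 and 4 in replicate 2, and the median log2 ratio was -2.14 against 0.04 over all genes tested, or -1.43 with no filter on low counts. Among the collagen and matrix genes Col1a1 was at 77.2 and 27.5 CPM, Col3a1 at 83.4 and 18.9 CPM, and Dcn (decorin) at 53.9 and 2.40 CPM. The receptor Pdgfra was at 10.5 and 0.248 CPM. Sparc, Cdh2, Thy1 and Fap were higher in replicate 2, with Cdh2 at 36.8 and 67.3 CPM. Thy1 and Fap had no read in replicate 1 and entered the test through replicate 2 alone. Zeb2 was also higher in replicate 2, as were 44.1% of all genes tested. Endothelial markers went both ways, with Cdh5 at 15.6 and 0.165 CPM but Sox17 at 0 and 6.61 CPM, and 2 of 4 tested were higher in each library. Of 4 immune markers tested, 3 were higher in replicate 1, such as Laptm5 at 37.9 and 3.56 CPM, and Aif1 was higher in replicate 2, at 0 and 6.70 CPM. The counts of these lists, and the mesenchymal median, include genes that passed the filter of 10 reads through 1 library alone. Through replicate 1 these were Postn, Lum, Pdgfra and Pdgfrb of the mesenchymal list and Cdh5 of the endothelial list. Through replicate 2 they were Thy1, Fap, Sox17, Esam and Aif1. Calls of such genes follow from the filter and carry no weight. The part of other cell types in the levels of Vim, Zeb1 and Zeb2 was not tested.

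**Figure D3:**
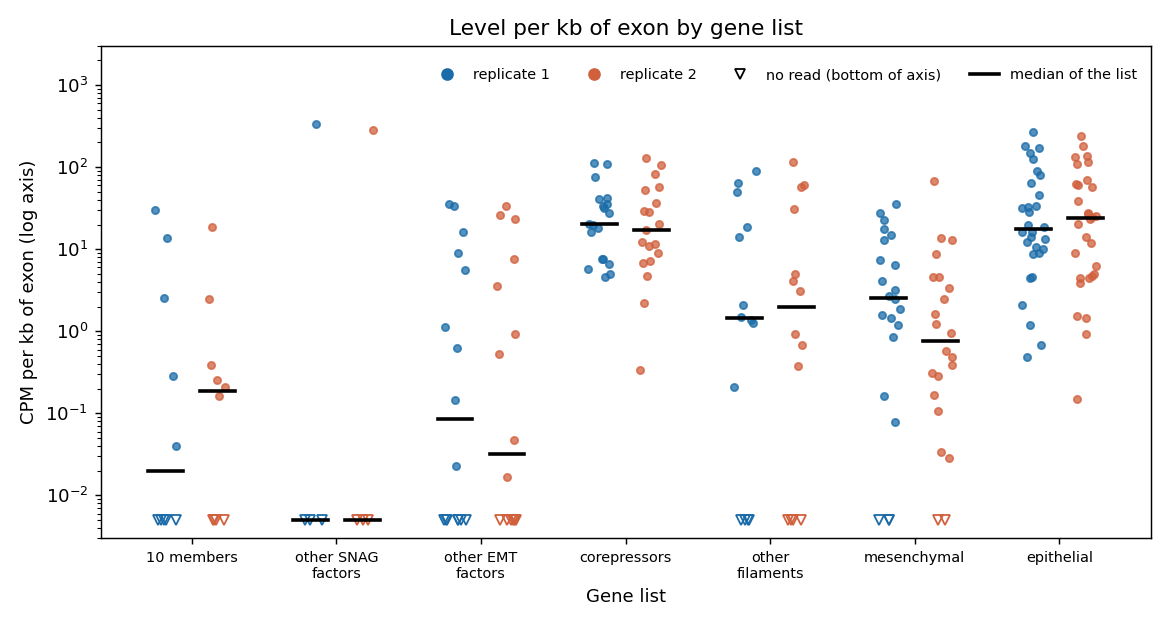
Level per kb of exon on a log axis, by gene list and library. Each point is a gene, triangles at the bottom are genes without a read, and bars are list medians; the epithelial medians are 17.6 and 23.9 CPM per kb, those of the mesenchymal list 2.57 and 0.769, and those of the 10 members 0.0199 and 0.186.

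Epithelial transcripts were present nearly throughout. Of 30 genes, 29 reached 1 CPM in each library, against 45.7% of all genes, and the exception, Grhl3, did so in replicate 1 alone. The highest by mean CPM were Cdh1 and Cldn6 (a claudin of embryonic epithelia), the latter at 466 and 416 CPM, followed by Tjp1 (ZO-1) at 323 and 441 CPM, Epcam, and Spint1 (a protease inhibitor) at 318 and 273 CPM. Between the libraries 27 of 30 differed, near the 85.8% of all genes tested. Of these, 14 were higher in replicate 1 and 13 in replicate 2, and the median log2 ratio of the list was -0.11. The list median was 17.6 and 23.9 CPM per kb, against 2.57 and 0.769 for the mesenchymal list.

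Other transcription factors tied to EMT were read in part. Twist1, Twist2, Prrx2, Foxc2 and Gsc were among the 6 of 16 genes without a read in either library. Over all genes this held for 8137 of 23284. Prrx1, a mesenchymal homeobox factor, was at 1.45 and 0.165 CPM, and Foxc1 at 0 and 3.06 CPM. Of the 16 genes listed 6 reached 1 CPM in each library, against 45.7% of all genes. These 6 include Foxa2, Elf3 and Grhl2, which act on the epithelial side. The E proteins Tcf3 and Tcf4, which also bind E-boxes, were at 107 and 83.3 CPM and at 15.3 and 47.2 CPM, and Klf8 was at 28.6 and 39.1 CPM.

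Genes that control the stability of Snail protein were read although Snai1 was not. Of 12 listed 11 reached 1 CPM in each library, against 45.7% of all genes. Gsk3b, the kinase that marks Snail for degradation, was at 495 and 577 CPM. Btrc and Fbxw11, the ubiquitin ligase subunits that bind the marked protein, were at 106 ± 1.34 and 229.9 ± 28.4 CPM (SD, n = 2). Fbxl14, another ligase subunit for Snail, was at 77.0 and 127 CPM. These genes have many other substrates, and their transcripts give no measure of Snail protein.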

How the data were processed

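Each library came as a file of raw read counts per symbol, as the authors deposited it. Per the submitters' processing notes, FastQC, cutadapt, TopHat2 2.0.4, Cufflinks 2.0.2, DESeq and build mm9 were used, with no roles named. How reads were counted, the annotation, the strand setting and the handling of multi-mapped reads: not given in the sources used here.

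CPM were made with TMM factors (0.9956 and 1.0044; edgeR 4.0.16, R 4.3.3). The 13416 genes with 10 or more reads over the libraries were compared by a two-sided exact binomial test (scipy 1.17.1) against the scaled sizes, Benjamini-Hochberg adjusted at 0.05. On simulated Poisson counts (13321 genes) the test found 85 of 100 genes with a 2-fold and 95 of 100 with a 4-fold change, and called 9 of the 13121 others. The simulated libraries differed by counting error alone apart from these changes, so the 9 calls give no rate of false calls for the real libraries. Log2 values used a prior count of 2. Intervals are exact Clopper-Pearson at 95% and cover counting error alone, as reads are not counted by molecule.

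Exon lengths and 25-base words are from GENCODE M21 (GRCm38, not mm9), so gene coordinates are not given. Of 188 symbols in 14 lists, 186 were matched. Members and lists were chosen with earlier results of these data known. The rule for named genes takes the members, the 5 leading genes of each list and markers. Ctbp1, Ctbp2, Esrp1, the Grhl genes, Nes, Des, Gfap, Ina, Col3a1, Dcn, Pdgfra, Pdgfrb, Postn, Lum, Thy1, Fap, Prrx1, Foxc1, Btrc, Fbxl14, Crb3 and the unread EMT factors were named after their values were seen. Some listed genes are not reported here by name but stay in the counts of their lists. With 1 group there is no pattern across conditions, so no genes of like pattern are named. Alternatives were plain totals, DESeq2 1.42.0 size factors, other limits, filters and prior counts, totals without the 10 most abundant genes, the full annotation and each library alone.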

Additional observations from a re-analysis of the deposited data

How the results depend on the processing

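Of 148 alternative values, 143 were labelled unchanged, 4 moved and 1 reversed. Levels labelled unchanged could still differ much between the libraries. The mean CPM of Ovol2 was 13.7, but 0.744 without replicate 1, and that of Zeb1 was 8.06, but 1.49 without replicate 1. The number of members at the detection limit was 1 at 5 CPM, where Vim was left, and between 3 and 4 under the other alternatives. The count of all genes differing between the libraries was 6410 with a difference over 2-fold as a further condition. The median log2 ratio of the mesenchymal list was -1.43 with no filter on low counts, which adds genes with few reads. The log2 ratio of Zeb2 to Zeb1 per kb of exon had a mean of 0.06 and ran from -3.13 without replicate 2 to 3.25 without replicate 1. The level of Vim per kb of exon was 11.3 CPM with the full annotation. Alternatives for the ratios of Snai1 to Snai2, Ovol2 to Ovol1 and Scrt1 to Scrt2 were not run, since a member of each pair had no read. A count of 0 does not exclude levels up to 0.241 CPM in replicate 1 or 0.248 in replicate 2. Only 1 group was measured, and no paired analysis was possible because there was no second group.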
